A study of Sus scrofa with 24 samples.

Results

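Cholesterol and fatty acid synthesis was followed through 30 genes that code for the enzymes of the mevalonate pathway, of the sterol branch and of fatty acid synthesis, together with the proteins that control them. The genes were chosen by symbol: a row of the deposited count table belonged to the module when its pig gene identifier carried a member symbol. This matched 29 of the 30 members among 25880 pig genes, and PMVK had no row. All 29 reached 1 CPM (counts scaled to the library total) in each of the 24 libraries, so the rule of at least 1 CPM in 4 libraries removed none.

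The RNA came from bronchial epithelial cells of wild-type pigs, 1 month old, that had been grown and differentiated with their upper surface in air. The cultures first received either 20 µM SB203580, a small-molecule inhibitor of p38 MAP kinases, or its vehicle DMSO, for 1 h. Flagellin, a protein of bacteria that the receptor TLR5 senses, followed at 100 ng/ml for 2 or 24 h, with PBS as its control. The 6 groups of 4 libraries each were SB203580 plus flagellin, flagellin after DMSO, and PBS after DMSO, at both times, and no culture given SB203580 without flagellin was analysed here.

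Animal cells make cholesterol from acetyl-CoA by way of mevalonate and squalene, and make fatty acids from acetyl-CoA by way of malonyl-CoA. Both routes are switched on by the SREBP transcription factors, products of SREBF1 and SREBF2, which the escort protein SCAP carries out of the endoplasmic reticulum when sterols are scarce and which INSIG proteins hold back when sterols are plentiful. In airway epithelium the lipids made this way go into the membranes of the cells themselves, as lung surfactant is made mainly by other cells.

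Library totals ranged from 26345945 to 36267289 counts, and the lowest count of any member in any library was 52. Counting error was therefore small beside the spread between libraries for nearly every member. The libraries formed 2 sets: Y-linked EIF1AY lay at 0 to 0.0284 CPM in replicates 3 and 4, against 17.9 to 32.2 CPM in replicates 1 and 2. Each group of 4 held 2 libraries of each set, and no label says whether replicates came from separate animals or cultures, so p-values reflect the spread among the libraries alone. The EIF1AY levels show that the sets did not share 1 source, while the spread within a set may be technical. Summed markers of airway basal cells lay at 7834 to 10783 CPM in replicates 3 and 4, against 4468 to 6568 CPM in replicates 1 and 2. COL17A1 made up most of that sum (means of 8310 and 4837 CPM), and ITGA6 and TP63 were also higher in replicates 3 and 4. KRT15, NGFR and DLK2 went the other way. Their means were 0.968, 4.26 and 5.75 CPM in replicates 3 and 4, against 1.66, 11.6 and 13.6 CPM in replicates 1 and 2. Markers of club and secretory cells lay at 699 to 1168 CPM in replicates 3 and 4, against 1736 to 3140 CPM in replicates 1 and 2. Ciliated markers were low throughout, at 22.9 to 60.8 CPM in replicates 3 and 4 and 25.2 to 86.3 CPM in replicates 1 and 2, and CAPS was at 0. Markers of adipocytes and hepatocytes, cells with high lipid synthesis, summed to at most 0.514 CPM. In such bulk RNA, fewer cells of a type and less RNA per cell cannot be told apart.

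Levels differed widely between members when given per length (CPM per kilobase of exon, mean of 24 libraries). SCD, the desaturase that makes monounsaturated fatty acids, stood highest at 287 CPM per kilobase. SREBF2, MSMO1, FASN and IDI1 followed at 53.96, 46.7, 40.3 and 39.9 CPM per kilobase. The lowest were STARD4 at 2.57, FADS2 at 1.55 and FDPS at 0.5 CPM per kilobase. The level of FDPS is uncertain, because 83.9% of its annotated exon bases also lie in RUSC1 and reads over such bases may be dropped or counted for either gene. The same holds for TM7SF2, with 92.5% of its exon bases in VPS51, for SREBF1 with 38.1% in RAI1, and for ACAT2 with 26.9% in TCP1 and an unnamed gene. No other member shared more than 7.83%.

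Time in culture was the condition along which members moved. Across the 3 treatments, most members of the mevalonate and sterol routes were lower at 24 h than at 2 h. The median log2 fold change of the 29 members was -0.37 in SB203580 plus flagellin, -0.20 in flagellin and -0.31 in PBS, whereas the medians of all 14172 genes tested were 0.011, 0.013 and -0.0090. FADS2, ACAT2, IDI1, HSD17B7, EBP, HMGCS1 and FDPS had the steepest values, and SREBF1 went the other way. The change was tested with edgeR's quasi-likelihood test, with p-values adjusted by the Benjamini-Hochberg method over all genes tested and a threshold of 0.05; a member passed when its adjusted p lay below it. In PBS 6 of 29 members passed, 5 lower and 1 higher at 24 h, beside 10.2% of all genes tested (4.88% lower and 5.28% higher). In flagellin 3 of 29 passed, 2 lower and 1 higher, beside 7.90% of all genes (3.68% lower and 4.23% higher). In SB203580 plus flagellin 5 of 29 passed, all lower, beside 6.88% of all genes (3.18% lower and 3.70% higher).

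No label states that replicate numbers pair the libraries. A fit that took the replicate number as a block called more members lower and no more higher. With that block 15 members passed in PBS, 14 lower and 1 higher, beside 22.5% of all genes (11.4% lower and 11.0% higher). In flagellin the blocked fit called 9 members lower and 1 higher, beside 18.8% (9.26% lower and 9.54% higher), and in SB203580 plus flagellin 15 lower and 0 higher, beside 17.1% (8.42% lower and 8.67% higher). A fit with a term for replicates 3 and 4 at each time was also run. Its time contrasts describe replicates 1 and 2, not both sets. There 16 members passed in PBS, 11 in flagellin and 17 in SB203580 plus flagellin, beside 34.4%, 31.2% and 30.7% of all genes. In the blocked fit 9 members passed as lower in all 3 treatments, against 4.21% of all genes, and 0 as higher, against 4.95%. Without the block only HSD17B7 passed as lower in all 3, against 1.47% of all genes. The direction was lower in all 3 treatments for 23 of 29 members, against 33.3% of all genes, without the block.

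**Figure D1:**
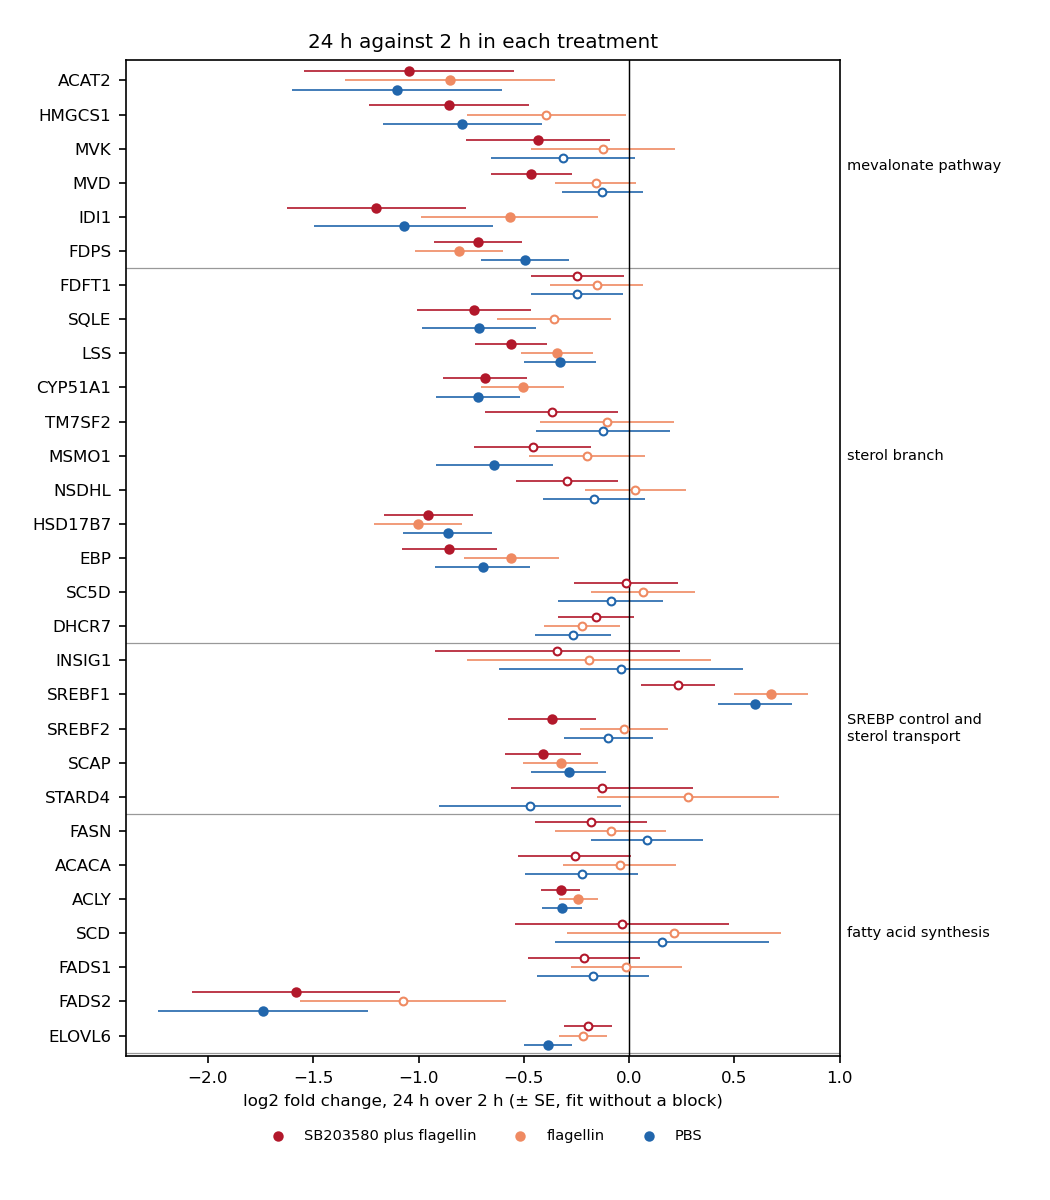
The horizontal axis gives the log2 fold change of 24 h over 2 h for each of the 29 members (rows, grouped by role), with 1 point per treatment and bars for the standard error in the fit without a block. Filled points passed an adjusted p of 0.05 in the fit with the replicate block, and SREBF1 is the member whose points lie to the right of 0 in each treatment, with those of flagellin and PBS filled.

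Pooling the treatments set all 24 libraries in 1 contrast. Same-numbered libraries of the 3 treatments counted there as separate, although their deviations from the group means correlated. The replicate block does not remove a time change that they share, so the p-values may be too small in both fits. The mean of the 3 time differences, a contrast chosen after the data were seen, called 15 of 29 members, 14 lower and 1 higher, beside 31.7% of all genes (15.2% lower and 16.6% higher). With the replicate block it called 22 members, 20 lower and 2 higher, beside 46.5% of all genes (23.6% lower and 22.9% higher). With the set term, where it describes replicates 1 and 2, the contrast called 21 members, beside 47.0%. Of the 15 members, 14 passed in each of the 24 fits that left out 1 library, and the exception was MSMO1. The share of all genes passing in every such fit is not given, so nothing about the module is read from this. By role, the members lower without the block were 4 of 6 in the mevalonate pathway, 6 of 11 in the sterol branch, 1 of 5 among the SREBP control and transport genes and 3 of 7 in fatty acid synthesis. Any difference among the 6 groups was called for 7 members (HSD17B7, FDPS, CYP51A1, ACLY, SREBF1, EBP and FADS2), beside 15.3% of all genes, and for 15 members with the block, beside 30.5%. With the set term, again for replicates 1 and 2, it was called for 17 members, beside 38.1%.

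The mevalonate pathway turns acetyl-CoA into isoprenoid units. ACAT2, the cytosolic thiolase that joins 2 acetyl-CoA molecules, had 96.4, 65.98, 25.6 and 25.96 CPM in replicates 1 to 4 of SB203580 plus flagellin at 24 h, against 155, 136, 68.3 and 82.8 CPM at 2 h. In flagellin it had 63.8, 115, 26.9 and 27.2 CPM at 24 h, against 132, 139, 74.8 and 74.8 CPM at 2 h, and in PBS 66.7, 63.4, 25.7 and 34.6 CPM at 24 h, against 136, 137, 70.4 and 64.4 CPM at 2 h. Every library at 24 h lay below the library of the same number at 2 h, yet the groups overlapped, because replicates 1 and 2 stood above replicates 3 and 4 at both times. The mean log2 fold change was -0.999 ± 0.29 (SE; adjusted p = 0.0111) without the block and -1.11 ± 0.11 (SE; adjusted p = 4.68e-07) with it.

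IDI1, the isomerase that balances the 2 isoprenoid building blocks, behaved alike. It had 68.7, 51.6, 32.3 and 28.6 CPM in SB203580 plus flagellin at 24 h, against 145, 131, 64.1 and 75.6 CPM at 2 h. In PBS it had 64.5, 60.5, 31.95 and 47.4 CPM at 24 h, against 135, 144, 75.7 and 74.2 CPM at 2 h, and here the times did not overlap. In flagellin it had 50.4, 147, 34.5 and 39.6 CPM at 24 h, against 123, 132, 75.1 and 72.2 CPM at 2 h, and replicate 2 at 24 h stood above every library at 2 h. The mean log2 fold change was -0.95 ± 0.24 (SE; adjusted p = 0.00532).

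HMGCS1, which makes HMG-CoA, had 212, 192, 125 and 97.95 CPM in SB203580 plus flagellin at 24 h, against 457, 313, 158 and 205 CPM at 2 h, and 231, 216, 122 and 155 CPM in PBS at 24 h, against 419, 399.8, 229 and 206 CPM at 2 h. In flagellin HMGCS1 had 189, 387, 127 and 144 CPM at 24 h, against 305, 378, 219 and 211 CPM at 2 h. Within each group replicates 1 and 2 lay above replicates 3 and 4, and the times overlapped in all 3 treatments. Its mean log2 fold change was -0.68 ± 0.22 (SE; adjusted p = 0.0213). FDPS, the farnesyl diphosphate synthase, had 1.87, 2.52, 2.67 and 3.35 CPM in SB203580 plus flagellin at 24 h, against 3.57, 4.37, 4.75 and 4.41 CPM at 2 h, and 1.89, 2.05, 2.56 and 2.87 CPM in flagellin at 24 h, against 3.54, 3.43, 4.53 and 4.93 CPM at 2 h. The times did not overlap in these 2 treatments, where the log2 fold changes were -0.72 ± 0.21 (SE; adjusted p = 0.0414) and -0.81 ± 0.21 (SE; adjusted p = 0.0205). In PBS FDPS had 1.77, 2.07, 2.57 and 2.86 CPM at 24 h, against 3.83, 3.32, 2.77 and 3.14 CPM at 2 h, and its log2 fold change was -0.49 ± 0.21 (SE; adjusted p = 0.144) without the block and -0.53 ± 0.17 (SE; adjusted p = 0.0349) with it, and the RUSC1 overlap limits what can be said of FDPS itself. The kinase MVK and the decarboxylase MVD had means of -0.29 ± 0.20 (SE; adjusted p = 0.281) and -0.25 ± 0.11 (SE; adjusted p = 0.0916); with the block both passed, at -0.28 ± 0.08 (SE; adjusted p = 0.00671) for MVK and -0.23 ± 0.09 (SE; adjusted p = 0.0364) for MVD.

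In the sterol branch, HSD17B7 gave the most regular change. It codes for a keto-sterol reductase and lies on chromosome 4, bases 87720127 to 87743069, in the deposited table's coordinates, whose pig assembly is not given in the sources used here. HSD17B7 had 17.8, 12.3, 14.2 and 14.97 CPM in SB203580 plus flagellin at 24 h, against 34.5, 37.6, 20.6 and 21.9 CPM at 2 h. It had 15.2, 18.8, 13.5 and 13.8 CPM in flagellin at 24 h, against 34.1, 34.03, 27.2 and 27.6 CPM at 2 h, and 19.97, 19.6, 12.9 and 15.7 CPM in PBS at 24 h, against 42.5, 32.1, 23.7 and 25.5 CPM at 2 h. The times did not overlap in any of the 3 treatments. The log2 fold changes were -0.95 ± 0.21 (SE; adjusted p = 0.00849) in SB203580 plus flagellin, -1.003 ± 0.21 (SE; adjusted p = 0.00555) in flagellin and -0.86 ± 0.21 (SE; adjusted p = 0.0124) in PBS. Within the sets the mean time difference of HSD17B7 was -0.78 in replicates 3 and 4 and -1.05 in replicates 1 and 2.

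EBP, a sterol isomerase, had 26.8, 20.7, 14.1 and 14.6 CPM in SB203580 plus flagellin at 24 h, against 41.6, 37.9, 26.96 and 31.3 CPM at 2 h, and 20.2, 22.2, 15.3 and 18.7 CPM in PBS at 24 h, against 36.6, 35.8, 24.8 and 26.5 CPM at 2 h. Neither pair overlapped. Flagellin libraries of EBP had 20.1, 30.9, 16.4 and 17.7 CPM at 24 h, against 37.00, 35.7, 25.8 and 27.1 CPM at 2 h, and the times overlapped through replicate 2 at 24 h. Its log2 fold change was -0.85 ± 0.23 (SE; adjusted p = 0.0256) in SB203580 plus flagellin, while in PBS it was -0.69 ± 0.23 (SE; adjusted p = 0.0547) without the block and -0.68 ± 0.11 (SE; adjusted p = 0.000488) with it.

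CYP51A1, the lanosterol demethylase, had 165, 120.0, 112 and 109.8 CPM in SB203580 plus flagellin at 24 h, against 254, 215, 169 and 177 CPM at 2 h. It had 142, 136, 112 and 146 CPM in PBS at 24 h, against 259.5, 246, 191 and 184 CPM at 2 h, again without overlap. In flagellin CYP51A1 had 119.5, 227, 114 and 122 CPM at 24 h, against 209, 232, 185 and 202 CPM at 2 h, with replicate 2 at 24 h among the 2 h values. The log2 fold changes of CYP51A1 were -0.69 ± 0.20 (SE; adjusted p = 0.0413) in SB203580 plus flagellin and -0.72 ± 0.20 (SE; adjusted p = 0.0265) in PBS.

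SQLE, the squalene epoxidase, had 163, 151, 90.1 and 84.5 CPM in SB203580 plus flagellin at 24 h, against 232, 206, 198 and 179 CPM at 2 h. In flagellin it had 156, 289.7, 104 and 113 CPM at 24 h, against 201, 204, 228 and 216 CPM at 2 h, where replicate 2 at 24 h was the highest library of all. In PBS it had 173, 159, 88.1 and 126 CPM at 24 h, against 213, 255, 235 and 193 CPM at 2 h. The times did not overlap in SB203580 plus flagellin or in PBS, and the mean log2 fold change of SQLE was -0.60 ± 0.16 (SE; adjusted p = 0.00547).

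LSS, the lanosterol synthase, had 136, 101, 80.9 and 84.2 CPM in SB203580 plus flagellin at 24 h, against 170.2, 151, 127 and 145 CPM at 2 h, and its mean log2 fold change was -0.41 ± 0.10 (SE; adjusted p = 0.00308). In flagellin LSS had 103, 142, 101 and 96.5 CPM at 24 h, against 161, 146, 130.3 and 124 CPM at 2 h, and in PBS 119, 124, 82.5 and 99.9 CPM at 24 h, against 143, 159, 114 and 119 CPM at 2 h. The times overlapped in each treatment, and LSS passed within single treatments with the block alone. MSMO1, the methylsterol monooxygenase, had 101, 93.1, 78.2 and 83.3 CPM in PBS at 24 h, against 158, 181, 116 and 99.4 CPM at 2 h. In SB203580 plus flagellin MSMO1 had 124, 87.9, 70.6 and 65.3 CPM at 24 h, against 183, 121, 83.3 and 90.5 CPM at 2 h, and in flagellin 86.2, 164, 75.8 and 79.99 CPM at 24 h, against 125, 144, 99.6 and 97.6 CPM at 2 h. Its mean log2 fold change was -0.43 ± 0.16 (SE; adjusted p = 0.0436), and of single treatments it passed in PBS alone, at -0.60 ± 0.17 (SE; adjusted p = 0.0169) with the block.

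The other members of the sterol branch had smaller values. FDFT1, the squalene synthase, had -0.22 ± 0.13 (SE; adjusted p = 0.209) as its mean log2 fold change, and with the block it passed at -0.21 ± 0.06 (SE; adjusted p = 0.00655). TM7SF2, a sterol reductase, had -0.20 ± 0.18 (SE; adjusted p = 0.438), and with the block -0.25 ± 0.09 (SE; adjusted p = 0.0345). NSDHL, DHCR7 and SC5D, further enzymes of this branch, did not pass in either fit, at -0.14 ± 0.14, -0.22 ± 0.10 and -0.01 ± 0.14 (log2, SE) without the block.

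**Figure D2:**
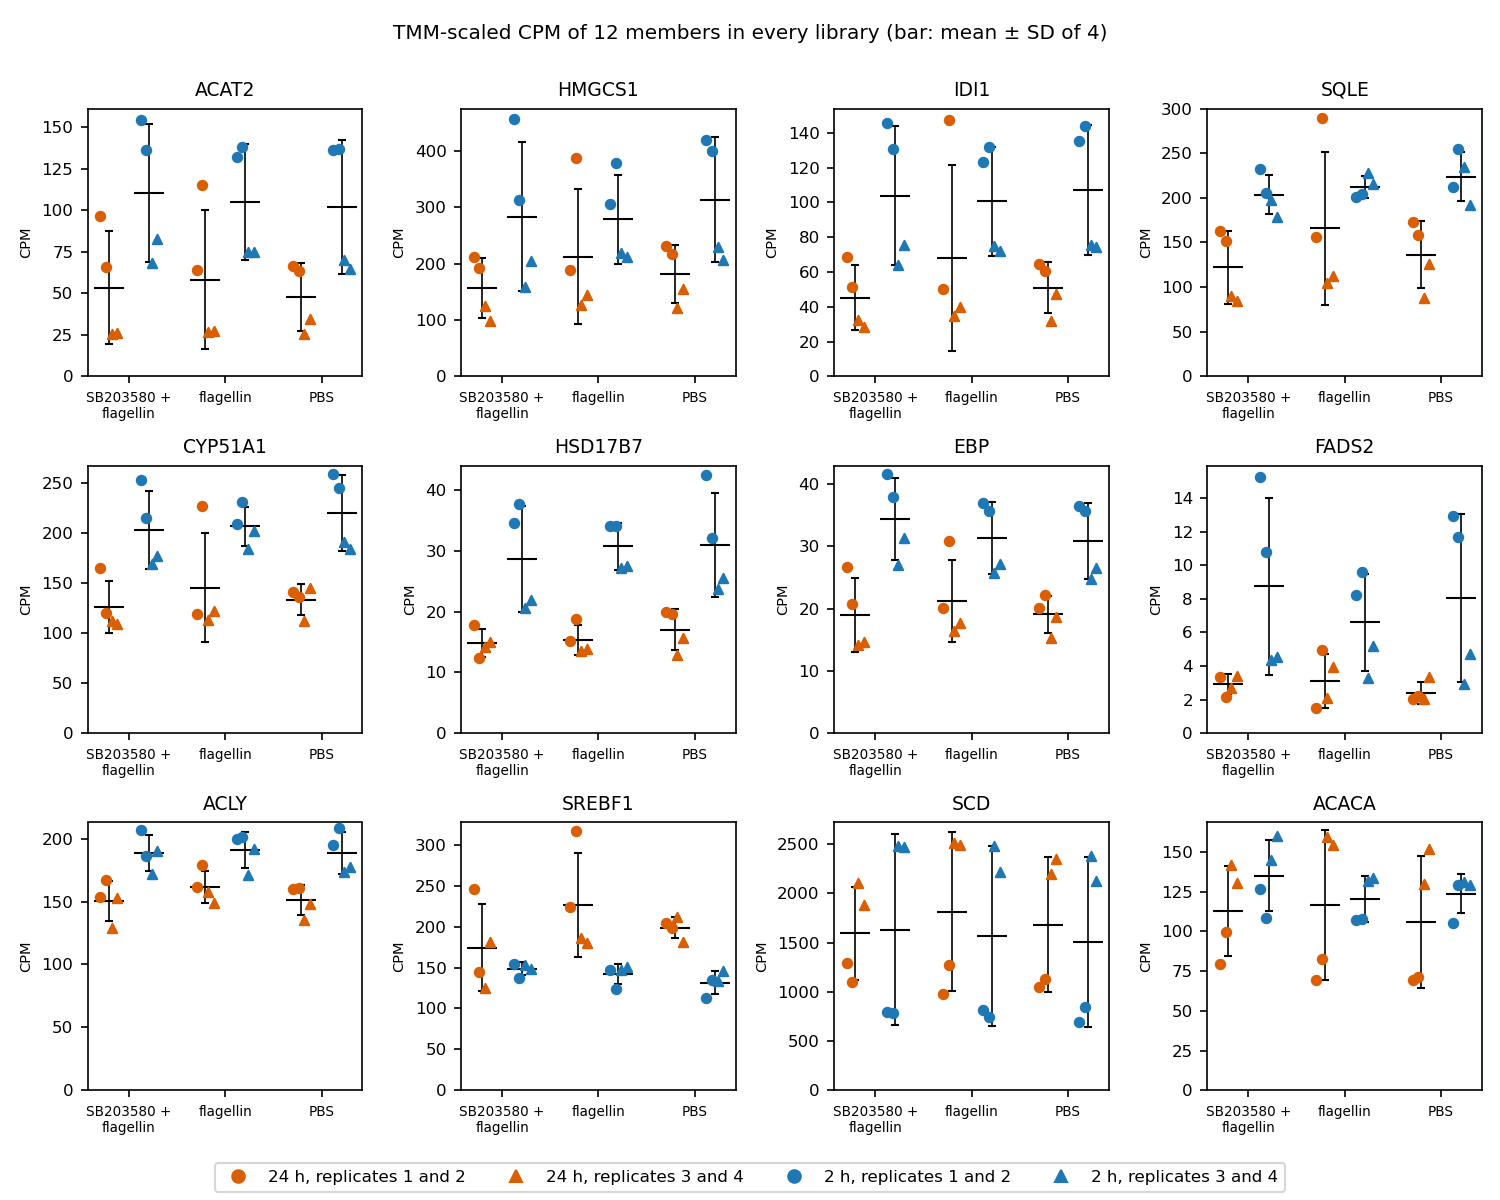
Each panel gives TMM-scaled CPM of 1 member in every library, with 24 h left of 2 h in each treatment, circles for replicates 1 and 2, triangles for replicates 3 and 4, and bars for the mean ± SD of 4 libraries. HSD17B7 is separated by time in all 3 treatments, while SCD is separated by replicate set.

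Among the genes that control the pathways, SREBF1 was the member that rose. It had 224, 317, 186 and 179.6 CPM in flagellin at 24 h, against 147, 124, 147 and 150.2 CPM at 2 h, and 204, 198, 211 and 182 CPM in PBS at 24 h, against 112, 135, 133 and 145 CPM at 2 h. The times did not overlap in these treatments, and the log2 fold changes were 0.67 ± 0.18 (SE; adjusted p = 0.0219) in flagellin and 0.60 ± 0.18 (SE; adjusted p = 0.0346) in PBS. In SB203580 plus flagellin it had 247, 145, 125 and 181 CPM at 24 h, against 155, 137, 153 and 149 CPM at 2 h, the times overlapped, and the log2 fold change was 0.23 ± 0.18 (SE; adjusted p = 0.511). The SB203580 difference at 24 h minus that at 2 h, which tests this contrast between treatments, was -0.44 ± 0.25 (SE; adjusted p = 1.00) with an unadjusted p of 0.0918. SREBF1 lies on chromosome 12, bases 60733977 to 60752502, and its exons overlap those of RAI1.

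SCAP fell: the mean of its log2 fold changes was -0.34 ± 0.10 (SE; adjusted p = 0.0157). It had 60.8, 56.3, 73.04 and 90.6 CPM in SB203580 plus flagellin at 24 h, against 85.6, 83.4, 105 and 98.9 CPM at 2 h, and 53.7, 60.7, 83.6 and 85.6 CPM in flagellin at 24 h, against 86.3, 75.9, 96.7 and 96.4 CPM at 2 h. In PBS it had 49.9, 52.2, 80.9 and 75.8 CPM at 24 h, against 70.6, 73.5, 82.2 and 89.5 CPM at 2 h. Replicates 3 and 4 lay above replicates 1 and 2 in each group, the reverse of most sterol genes, and within single treatments SCAP passed with the block alone. SREBF2, the SREBP gene tied mainly to sterol synthesis, had -0.16 ± 0.12 (SE; adjusted p = 0.331) as its mean without the block and -0.17 ± 0.07 (SE; adjusted p = 0.0371) with it. INSIG1 and STARD4, which codes for a cholesterol carrier of the cytosol, had -0.19 ± 0.33 and -0.11 ± 0.25 (log2, SE) and did not pass in either fit.

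Fatty acid synthesis held a steep change and several small ones. FADS2, a desaturase of polyunsaturated fatty acids, had 3.37, 2.16, 2.69 and 3.43 CPM in SB203580 plus flagellin at 24 h, against 15.2, 10.8, 4.38 and 4.53 CPM at 2 h. It had 1.53, 4.96, 2.08 and 3.97 CPM in flagellin at 24 h, against 8.24, 9.62, 3.31 and 5.21 CPM at 2 h, and 2.02, 2.22, 2.04 and 3.36 CPM in PBS at 24 h, against 12.9, 11.7, 2.91 and 4.70 CPM at 2 h. The level at 2 h came mostly from replicates 1 and 2, and in PBS and flagellin the times overlapped, with replicate 3 at 2 h below replicate 4 at 24 h. The log2 fold change of FADS2 was -1.74 ± 0.50 (SE; adjusted p = 0.0305) in PBS, and the mean over treatments was -1.46 ± 0.28 (SE; adjusted p = 0.000522).

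ACLY, which makes cytosolic acetyl-CoA from citrate, changed little but evenly. It had 153, 167, 129 and 153 CPM in SB203580 plus flagellin at 24 h, against 207, 186, 172 and 190.2 CPM at 2 h, and 159.6, 161, 135 and 148 CPM in PBS at 24 h, against 195, 209, 173 and 177 CPM at 2 h. In flagellin ACLY had 162, 179, 158 and 149 CPM at 24 h, against 200.1, 202, 171 and 192 CPM at 2 h. The times overlapped in flagellin only, and the log2 fold changes of ACLY were -0.33 ± 0.09 (SE; adjusted p = 0.0401) in SB203580 plus flagellin and -0.32 ± 0.09 (SE; adjusted p = 0.0347) in PBS.

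ELOVL6, an elongase of saturated and monounsaturated chains, had 52.5, 46.7, 40.3 and 54.05 CPM in PBS at 24 h, against 62.5, 63.04, 65.8 and 61.5 CPM at 2 h, and its log2 fold change there was -0.39 ± 0.11 (SE; adjusted p = 0.0342). In flagellin ELOVL6 had 53.4, 53.1, 47.7 and 45.1 CPM at 24 h, against 55.4, 62.5, 54.9 and 58.99 CPM at 2 h, and in SB203580 plus flagellin 67.7, 58.6, 43.4 and 47.9 CPM at 24 h, against 59.9, 64.5, 60.4 and 64.6 CPM at 2 h. Its times overlapped in SB203580 plus flagellin only. FASN, the fatty acid synthase, and FADS1, the other desaturase of polyunsaturated chains, did not pass in either fit, with means of -0.06 ± 0.15 and -0.13 ± 0.15 (log2, SE). ACACA, the acetyl-CoA carboxylase, and SCD had means of -0.18 ± 0.15 and 0.11 ± 0.29 (log2, SE) without the block, and passed with it at -0.24 ± 0.09 (SE; adjusted p = 0.0405) and 0.24 ± 0.09 (SE; adjusted p = 0.0398).

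Several of the calls within 1 treatment were lost when 1 library was left out. Each such fit also had fewer libraries and unequal sets in 1 group, for which the fit without the block does not adjust. The loss can therefore not be laid to the values of that library alone. In PBS, without the block, 0 members passed without replicate 1 at 2 h (8 had an unadjusted p under 0.05 in that edgeR fit), 1 without replicate 2 at 2 h, 2 without replicate 2 at 24 h and 1 without replicate 3 at 24 h. The share of all genes called in these 4 fits was 6.98%, 6.57%, 5.84% and 6.24%, also below the 10.2% with all libraries. Their share at an unadjusted p under 0.05 is not given, so nothing is read from the 8 members. In SB203580 plus flagellin, 2, 1 and 3 passed without replicate 1, 2 or 4 at 2 h, and 3, 1 and 2 without replicate 2, 3 or 4 at 24 h, beside 4.98%, 4.37%, 4.56%, 5.85%, 5.18% and 5.16% of all genes. In flagellin the number ranged from 2 to 4, beside 4.96% to 7.20% of all genes. With the block the numbers were 9 to 15 in PBS, 6 to 13 in flagellin and 11 to 15 in SB203580 plus flagellin, beside 14.3% to 21.7%, 13.1% to 17.3% and 11.998% to 14.8% of all genes; the lowest came without replicate 2 of PBS at 24 h and without replicate 1 or replicate 4 of flagellin at 24 h. With the block, ACAT2, EBP and HSD17B7 passed as lower in each treatment in every such fit. The share of all genes that did so is not given. Without the 5 libraries of replicates 1 and 2 with the lowest ciliated markers (25.2 to 35.1 CPM, against 45.9 to 86.3 CPM in the other 7), 10 members passed in flagellin, 8 in SB203580 plus flagellin and 6 in PBS, beside 10.9%, 5.78% and 10.5% of all genes. SB203580 plus flagellin at 24 h then held replicates 3 and 4 only and lacked replicate 1 at 2 h. Flagellin at 24 h and PBS at 2 h each lacked replicate 2. Most members stood lower in replicates 3 and 4, so without the block these counts mix time with set.

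Markers of other cell types moved with time in some lists, and their part in the members' change was not tested. Of the 3 endothelial markers tested, 3 were higher at 24 h in the mean of the treatments; KDR made up nearly all of that sum, and the defining markers CDH5 and EMCN reached at most 0.0558 and 0.0687 CPM. Without the block in edgeR, 1 of 9 ciliated, 1 of 5 squamous, 2 of 6 fibroblast and smooth muscle and 1 of 4 immune markers were higher and none of them lower, while 1 of 6 airway basal markers was lower and 0 higher. Of 8 club and secretory, 4 goblet and mucin and 7 proliferation markers 0 passed. With the block 2 squamous markers were higher and 1 lower, and 2 airway basal markers were lower. The block also called 1 ciliated, 1 goblet, 1 proliferation, 1 fibroblast and 2 immune markers lower, and 1 club and secretory marker higher. The log2 fold changes reached 1.76 among the squamous markers and -1.49 among the basal ones without the block.

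Between treatments no member passed at either time. For flagellin against PBS, 0 of 29 members passed at 2 h, beside 0.325% of all genes, and 0 at 24 h, beside 0%. For SB203580 plus flagellin against flagellin, 0 passed at 2 h, beside 0.00706%, and 0 at 24 h, beside 0%. For SB203580 plus flagellin against PBS, 0 passed at 2 h, beside 0.183%, and 0 at 24 h, beside 0.00706%. The blocked fit called 0 members as well, beside 1.07% and 0% at 2 and 24 h for flagellin against PBS, 0.0353% and 0% for SB203580 plus flagellin against flagellin, and 0.804% and 0.0635% for SB203580 plus flagellin against PBS. DESeq2 also called 0 members in these 6 comparisons, which share libraries, beside 0.689%, 0.00513%, 0.0761%, 0.00513%, 0.532% and 0.0513% of all genes in the same order. In edgeR without the block, 1 member had an unadjusted p under 0.05 in SB203580 plus flagellin against flagellin at 24 h (SREBF1, 0.0431) and 0 in the other 5. With the block there were 4 in that comparison, 4 in SB203580 plus flagellin against PBS at 2 h and 0 in the other 4. No share of all genes with such a p is given, so nothing about the module is read from these counts. A shift under the threshold is not shown to be absent: the standard errors of single members ran to 0.58 log2 units for INSIG1.

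**Figure D3:**
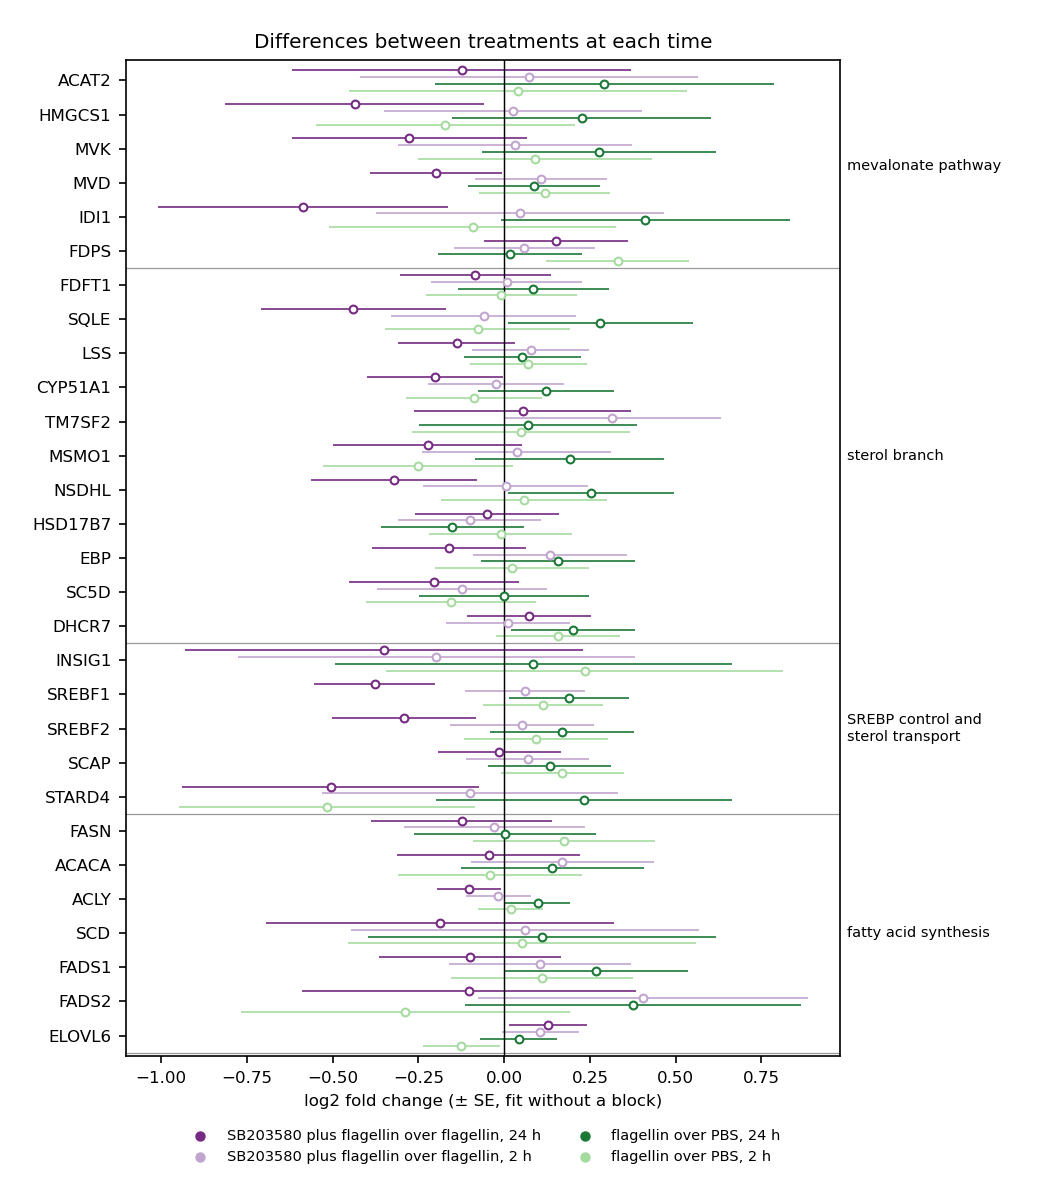
The horizontal axis gives the log2 fold change of SB203580 plus flagellin over flagellin (purple) and of flagellin over PBS (green) for each of the 29 members, at 24 h (dark) and 2 h (light), with bars for the standard error in the fit without a block. All points are open, as none passed in the blocked fit.

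The members with the highest and lowest values between treatments were mostly low or uneven ones. At 2 h STARD4 had 24.3, 12.98, 10.2 and 13.1 CPM in SB203580 plus flagellin, 16.4, 19.5, 14.7 and 14.2 CPM in flagellin and 29.8, 28.00, 19.6 and 15.4 CPM in PBS. Each flagellin library lay below the PBS library of the same number, but the groups overlapped. The log2 fold change of STARD4 was -0.52 ± 0.43 (SE; adjusted p = 1.00) for flagellin against PBS and -0.62 ± 0.43 (SE; adjusted p = 1.00) for SB203580 plus flagellin against PBS. For flagellin against PBS at 2 h FADS2 had -0.29 ± 0.48, INSIG1 0.23 ± 0.58 and FDPS 0.33 ± 0.21 (log2, SE). At 24 h the lowest were HSD17B7 at -0.15 ± 0.21 and SC5D at -0.00083 ± 0.25, and the highest FADS2 at 0.37 ± 0.49 and IDI1 at 0.41 ± 0.42 (log2, SE).

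For SB203580 plus flagellin against flagellin, the lowest at 24 h were IDI1 at -0.59 ± 0.42 and STARD4 at -0.51 ± 0.43, and the highest ELOVL6 at 0.13 ± 0.11 and FDPS at 0.15 ± 0.21 (log2, SE). In the fit without the block, IDI1 at 24 h became 0.11 when the library of 147 CPM in flagellin described above was left out. Flagellin then no longer held the sets in equal number, and IDI1 stood higher in replicates 1 and 2. With the block IDI1 stayed negative whichever library was left out, from -0.69 to -0.085. At 2 h the lowest were INSIG1 at -0.20 ± 0.58 and SC5D at -0.12 ± 0.25, and the highest FADS2 at 0.40 ± 0.48 and TM7SF2 at 0.32 ± 0.32 (log2, SE). For SB203580 plus flagellin against PBS, FDPS and TM7SF2 had 0.39 ± 0.21 and 0.37 ± 0.32 at 2 h. At 24 h DHCR7 and FADS2 were highest at 0.27 ± 0.18 and 0.27 ± 0.49, and INSIG1 and STARD4 lowest at -0.26 ± 0.58 and -0.27 ± 0.43 (log2, SE).

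SC5D was the exception within a set. In replicates 3 and 4 alone it passed in SB203580 plus flagellin against PBS at 2 h, at -0.44 with an edgeR adjusted p of 0.0252, and it was the only member to pass in any of the 6 comparisons there. Of all genes, 1.31% passed there. In the other comparisons of replicates 3 and 4, 1.42% passed for flagellin against PBS at 2 h, 0.667% for SB203580 plus flagellin against flagellin at 2 h, and at 24 h 0% for flagellin against PBS, while SB203580 plus flagellin gave 0.00717% against flagellin and 0.0143% against PBS. SC5D had 116, 95.2, 78.1 and 78.2 CPM in SB203580 plus flagellin at 2 h, 103, 111, 94.9 and 92.1 CPM in flagellin and 125, 108, 109 and 105 CPM in PBS. Over all 4 replicates its log2 fold change was -0.28 ± 0.25 (SE; adjusted p = 1.00).

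Flagellin at 24 h held a library that stood apart. For flagellin against PBS at 24 h, 27 of 29 members had values above 0, with a median log2 fold change of 0.14, against 0.016 for all genes tested. Replicate 2 of flagellin at 24 h had the highest value of the 4 in much of the module, as with 227 CPM for CYP51A1, beside 119.5, 114 and 122 CPM in replicates 1, 3 and 4. The median was -0.03 when only replicates 3 and 4 were taken and 0.27 with only replicates 1 and 2. It was -0.07 without the 5 libraries low in ciliated markers, of which this is 1. Flagellin then lacked replicate 2 while PBS kept all its libraries, so the sets were unequal in that value. Replicate 2 of flagellin had 3848 CPM of summed squamous markers, beside 588 to 857 CPM in the other 3. Its proliferation markers summed to 217 CPM, beside 31.9 to 117 CPM. It had 51.0 CPM of fibroblast and smooth muscle markers, beside 11.4 to 25.3 CPM, and in these 3 sums it was the highest of the 24 libraries. Its ciliated sum was 35.1 CPM, beside 22.9 to 63.8 CPM. The part of cell makeup in its values was not tested.

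The treatments also did not separate in how they changed with time. For the flagellin difference at 24 h minus that at 2 h, 0 of 29 members passed, beside 0.0423% of all genes, and for the SB203580 difference 0 passed, beside 0%; with the block these were again 0, beside 0.191% and 0%. By edgeR without the block 0 members had an unadjusted p under 0.05 in either. For the flagellin difference the values ran from -0.31 ± 0.29 for FDPS and -0.17 ± 0.37 for FASN to 0.66 ± 0.69 for FADS2 and 0.75 ± 0.61 for STARD4. For the SB203580 difference they ran from -0.63 ± 0.59 for IDI1 and -0.51 ± 0.68 for FADS2 to 0.06 ± 0.26 for DHCR7 and 0.09 ± 0.29 for FDPS (log2, SE).

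More members differed between the replicate sets than between treatments. Over all 6 groups, 26 of 29 members differed between replicates 3 and 4 and replicates 1 and 2, 20 lower and 6 higher in replicates 3 and 4, beside 63.1% of all genes (32.2% lower and 31.0% higher). The members lower in replicates 3 and 4 were mostly of the mevalonate and sterol routes. INSIG1 had 18.1 to 62.3 CPM in replicates 3 and 4, against 44.02 to 116 CPM in replicates 1 and 2, a log2 difference of -1.36 ± 0.17 (SE; adjusted p = 1.01e-06). ACAT2, IDI1, STARD4, HMGCS1 and MVK followed at -1.22 ± 0.11, -0.95 ± 0.12, -0.92 ± 0.15, -0.88 ± 0.10 and -0.83 ± 0.08 (log2, SE). The higher ones were SCD, TM7SF2, ACACA, FADS1, SCAP and FDPS. SCD had 1878 to 2515 CPM in replicates 3 and 4, against 693 to 1294 CPM in replicates 1 and 2, with no overlap and a log2 difference of 1.29 ± 0.09 (SE; adjusted p = 2.9e-10). ACACA had 129.1 to 160.2 CPM in replicates 3 and 4, against 69.1 to 128.9 CPM in replicates 1 and 2, which all but met, at 0.58 ± 0.09 (SE; adjusted p = 1.19e-05). The sums of basal and of secretory markers differed between the sets as well, as given above. Squamous markers summed to 535 to 767 CPM in replicates 3 and 4, against 857 to 3848 CPM in replicates 1 and 2, and proliferation markers to 31.02 to 91.99 CPM, against 92.97 to 217 CPM. The mitochondrial share of counts was 3.03% to 4.00% in replicates 3 and 4, against 4.29% to 6.15% in replicates 1 and 2. The part of these in the members' differences was not tested.

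A contrast of the time change in replicates 3 and 4 minus that in replicates 1 and 2, chosen after the data were seen, called 12 of 29 members, 6 in each direction, beside 35.0% of all genes (17.4% lower and 17.5% higher). These shares are close, so nothing about the module is read from the count. FADS2 changed by -0.51 in replicates 3 and 4 and -2.07 in replicates 1 and 2, a difference of 1.57 ± 0.34 (SE; adjusted p = 0.00134). SQLE changed by -1.05 in replicates 3 and 4 and -0.27 in replicates 1 and 2, a difference of -0.77 ± 0.17 (SE; adjusted p = 0.00164). INSIG1 changed by -0.90 in replicates 3 and 4 and 0.10 in replicates 1 and 2, a difference of -0.996 ± 0.26 (SE; adjusted p = 0.00541), so its 2 sets ran in opposite directions. SCD likewise changed by -0.07 in replicates 3 and 4 and 0.55 in replicates 1 and 2 (-0.61 ± 0.12 (SE; adjusted p = 0.000405)), and ACACA by 0.06 in replicates 3 and 4 and -0.53 in replicates 1 and 2 (0.61 ± 0.12 (SE; adjusted p = 0.000415)).

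Other members fell alike in both sets. CYP51A1 changed by -0.63 in replicates 3 and 4 and -0.64 in replicates 1 and 2. HMGCS1 changed by -0.67 in replicates 3 and 4 and -0.68 in replicates 1 and 2, and IDI1 by -1.04 in replicates 3 and 4 and -0.90 in replicates 1 and 2. EBP changed by -0.75 in replicates 3 and 4 and -0.67 in replicates 1 and 2, and ACLY by -0.31 in replicates 3 and 4 and -0.28 in replicates 1 and 2. For SREBF1 the changes were 0.27 in replicates 3 and 4 and 0.71 in replicates 1 and 2, a difference of -0.43 ± 0.17 (SE; adjusted p = 0.0584). With only replicates 3 and 4 in the fit, 13 members passed as lower in PBS, 13 in flagellin and 17 in SB203580 plus flagellin, beside 11.5%, 13.9% and 12.6% of all genes. With only replicates 1 and 2, 7, 2 and 4 did, beside 7.60%, 5.15% and 4.89%.

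**Figure D4:**
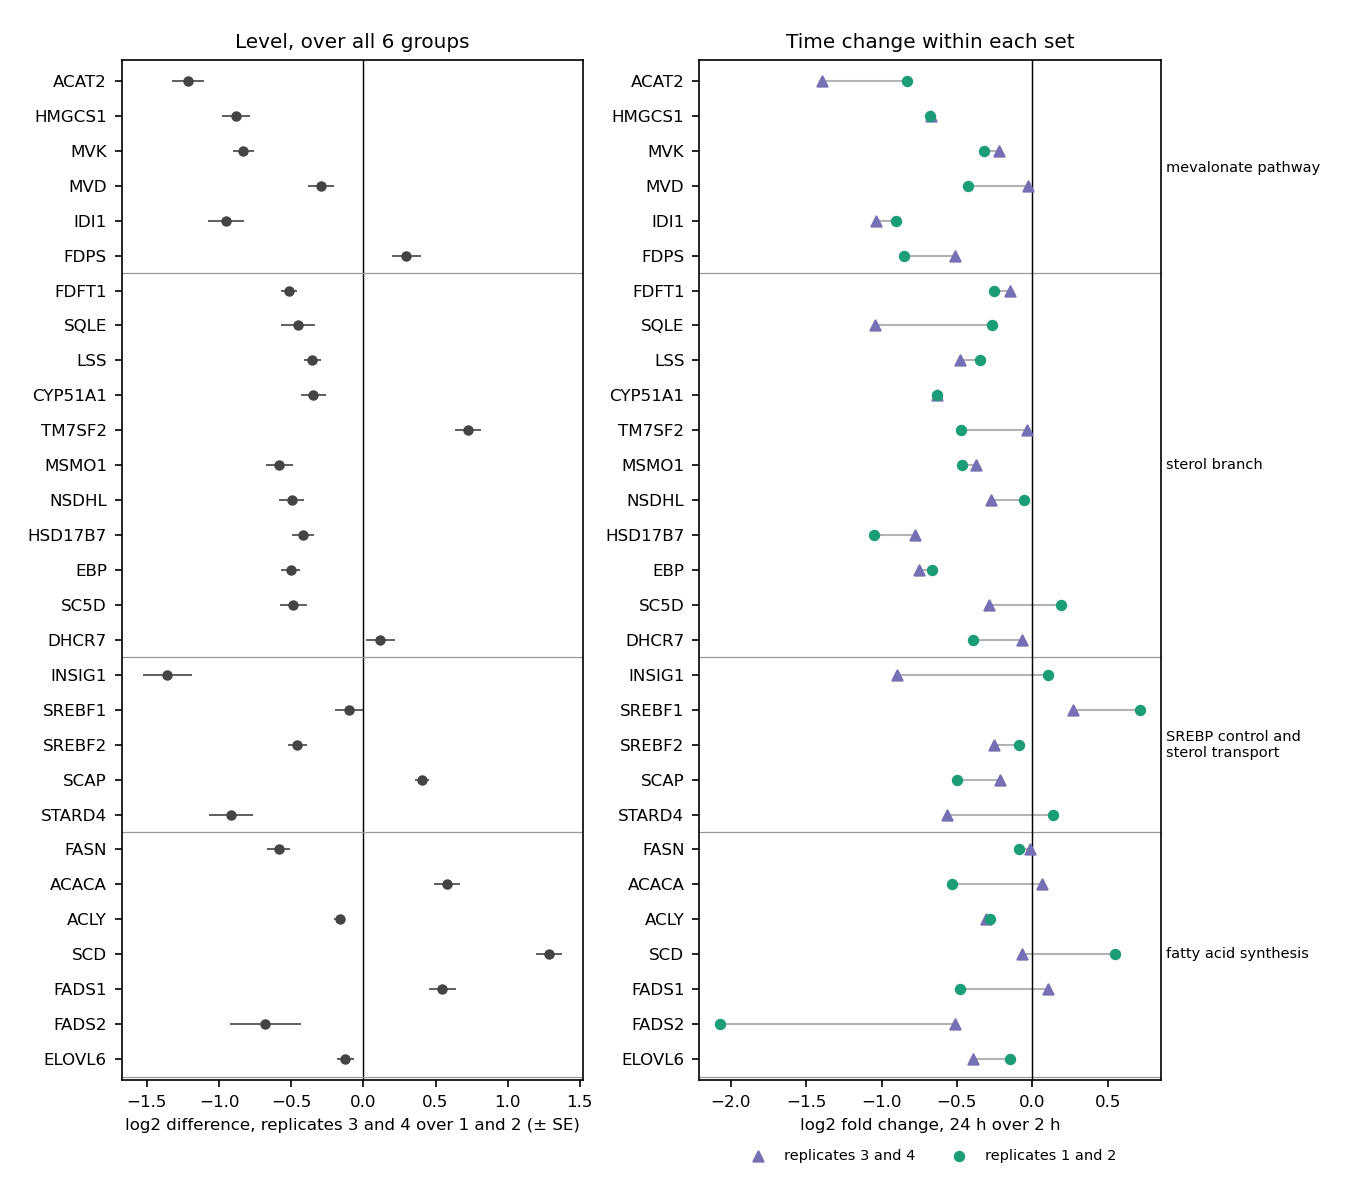
The left panel gives the log2 difference in level of each member, replicates 3 and 4 over replicates 1 and 2 (± SE, over all 6 groups), and the right panel the mean log2 fold change of 24 h over 2 h within replicates 3 and 4 (triangles) and within replicates 1 and 2 (circles). SCD has the highest and INSIG1 the lowest level difference, and FADS2 has the longest line between its 2 time changes.

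Genes of the same pathways outside the module were counted from 3 further lists, beside the 15.2% lower and 16.6% higher of all genes in the mean of the treatments. In the mean of the 3 time differences, without the block, 1 of 14 other sterol and isoprenoid genes was higher and 4 were lower, with a median of -0.18, and with the block 2 were higher and 7 lower. The lower ones included PDSS1 and COQ2 of ubiquinone synthesis at -0.80 ± 0.20 and -0.53 ± 0.09 and the cytochrome P450 reductase POR at -0.33 ± 0.07 (log2, SE).

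Of 18 genes of sterol sensing, uptake, transport and efflux, 4 were higher and 3 lower, with a median of -0.097, shares near those of all genes; with the block 5 were higher and 6 lower. ABCG1, a sterol exporter, was higher at 0.63 ± 0.12 (SE; adjusted p = 0.000537) and CYP27A1, an oxysterol-forming hydroxylase, at 1.06 ± 0.18 (SE; adjusted p = 0.000117). SOAT1, which esterifies cholesterol for storage, was lower at -0.65 ± 0.17 (SE; adjusted p = 0.00536) and NPC1, which moves cholesterol out of lysosomes, at -0.27 ± 0.08 (SE; adjusted p = 0.00873). Of 28 other fatty acid and lipid genes, 5 were higher and 6 lower, with a median of -0.096, again near the shares of all genes; with the block 7 were higher and 11 lower. MLXIPL, which codes for the carbohydrate-responsive factor ChREBP, was higher at 1.25 ± 0.22 (SE; adjusted p = 0.000214), and the elongases ELOVL7 and ELOVL5 were lower at -0.59 ± 0.10 and -0.31 ± 0.09 (log2, SE). Between treatments 0 of these genes passed without the block, and INSIG2 alone passed with it, at -0.60 ± 0.13 (SE; adjusted p = 0.0281) in SB203580 plus flagellin against PBS at 2 h.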

How the data were processed

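RNA of 24 cultures was read in 1 deposited table of whole-number counts per gene, not normalized, made by the authors with STAR 2.4.0a, featureCounts and Subread 1.4.6-p1 per the submitters' processing notes. Those notes name the mouse build GRCm38, while the deposited features are pig genes, with the pig build and the strand setting being not given in the sources used here. Reads of overlapping genes cannot be told apart. Of 31868 features, 5988 were not pig genes (at most 0.00514% of counts) and entered neither library sizes nor tests. Totals were 26345945 to 36267289 counts, with 15878 to 16524 genes detected; a count of 0 allows up to 3 counts, or 0.0827 to 0.114 CPM, which covers counting error only. Within groups none was a duplicate of another (chi-square per gene 10.8 to 412 over 36 pairs).

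Counts were scaled by TMM (factors 0.836 to 1.07), and filterByExpr left 14172 genes. Differences were tested by quasi-likelihood in edgeR 4.0.16 under R 4.3.3 (robust, two-sided), in a fit of all 24 libraries without a block and with 18 residual degrees of freedom, and p-values were adjusted over all genes tested by Benjamini-Hochberg, with a threshold of 0.05. The method was tested on simulated data that held no difference between the sets, so that run cannot show how the fit without a block does with one. The SE is the absolute log2 fold change over the square root of F. Replicate numbers were taken as pairs from the data: deviations of same-numbered libraries correlated at 0.211 to 0.797 over 36 pairs, and a library's own number was the closest in 21. In the rest the closest was the other number of the same set, so pairing within a set is not established. The blocked fit had 15 residual degrees of freedom. DESeq2 1.42.0, RLE scaling, other filters, set terms, single sets, the compared groups alone and leaving out libraries were alternatives. The contrasts over all treatments and between sets, and the 5 libraries left out together, were chosen after the data were seen.

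The members and gene lists were chosen with earlier results of these data known. Every library's value is given for members that passed (the 12 with the smallest adjusted p where more did), and the 2 highest and 2 lowest members for comparisons between treatments with none. All members are named. Some genes of these pathways are not reported here.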

Additional observations from a re-analysis of the deposited data

Results flagged for a closer look

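Among 174 groups of 4 libraries, 1 for each member and group, 8 (4.60%) held a library whose gap to the nearest of the other 3 exceeded Dixon's critical value. Chance gives about 1 in 20 such groups only for values drawn from 1 normal spread. Each group here held libraries of both replicate sets, so the 4.60% cannot be set against that rate. Of these, 5 were replicate 2 of flagellin at 24 h, each time the highest. It had 29.6 CPM of MVD, beside 19.2 to 20.3 CPM in the other 3, and 147 CPM of IDI1, beside 34.5 to 50.4 CPM. It also had 142 CPM of LSS, beside 96.5 to 103 CPM, 227 CPM of CYP51A1, beside 114 to 122 CPM, and 164 CPM of MSMO1, beside 75.8 to 86.2 CPM. The 5 values come from 1 library and are not independent.

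The other 3 came from 3 libraries. Replicate 2 of flagellin at 2 h had 124 CPM of SREBF1, beside 147 to 150.2 CPM. Replicate 1 of PBS at 2 h had 105 CPM of ACACA, beside 129 to 131 CPM. Replicate 4 of PBS at 24 h had 3.36 CPM of FADS2, beside 2.02 to 2.22 CPM.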

How the results depend on the processing

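The number of members that passed depended on the block and on single libraries for the time comparisons, while it was 0 between treatments in each alternative run, except for SB203580 plus flagellin against PBS at 2 h in replicates 3 and 4 alone, where it was 1. For 24 h against 2 h in PBS it was 15 with the replicate block, 16 with a set term (the change in replicates 1 and 2) and 14 in replicates 3 and 4 alone. It was 2 in the groups compared alone, and 14 with the block without the 5 libraries low in ciliated markers. In flagellin the same alternatives gave 10, 11, 13, 1 and 15, and 10 without the 5 libraries and no block. In SB203580 plus flagellin they gave 15, 17, 17, 0 (12 had an unadjusted p under 0.05 in edgeR) and 12, 8 without the 5 libraries and no block, and 8 in DESeq2. For the mean of the treatments it was 15 without the block, 22 with it, and 23 with the block and without the 5 libraries. For any difference among the 6 groups the number was 7 in the fit without a block, 15 with the block and 17 with a set term (levels of replicates 1 and 2). It was 12 without the 5 libraries and 20 with both the block and without them. The groups compared alone leave fewer samples in the fit. Leaving out the 5 libraries makes the sets unequal between the times. The cause of the other shifts was not tested. The counts in this paragraph are given without the shares of all genes in the same fits. No change in them is read as particular to the module. Among the other pathway genes INSIG2 passed between treatments with the block only, in SB203580 plus flagellin against PBS at 2 h. The replicate block changed no call of a member between treatments.

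Leaving out 1 library at a time gave 0 to 6 members in PBS, 2 to 4 in flagellin, 1 to 5 in SB203580 plus flagellin, 14 to 16 in the mean and 7 to 10 for any difference without the block. With it the ranges were 9 to 15, 6 to 13, 11 to 15 and 17 to 23 for the first 4.

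Members that passed over time kept their direction, except ACACA at 0.062 and SCD at -0.070 for the mean in replicates 3 and 4 alone. Of values that did not pass between treatments, in replicates 3 and 4 alone FADS2 was 0.17 for flagellin against PBS at 2 h and -0.0086 for its time interaction, IDI1 -0.100 for flagellin against PBS at 24 h, ELOVL6 -0.038 for SB203580 plus flagellin against flagellin at 24 h, and DHCR7 -0.10 for SB203580 plus flagellin against PBS at 24 h and -0.16 for the SB203580 interaction. In replicates 1 and 2 alone FDPS was -0.037 for flagellin against PBS at 2 h, 0.064 for the flagellin and -0.031 for the SB203580 interaction, SC5D 0.14 for flagellin against PBS at 24 h, and INSIG1 0.084 for SB203580 plus flagellin against flagellin at 2 h. SC5D at 24 h was 0.0076 with RLE scaling and 0.0080 in DESeq2. Without the 5 libraries IDI1 was -0.29 for flagellin against PBS at 24 h (-0.13 with the block), ELOVL6 -0.10 for SB203580 plus flagellin against flagellin at 24 h (-0.077 with the block), FADS2 -0.0097 at 2 h under SB203580 plus flagellin against flagellin, and 0.28 for the SB203580 interaction (0.37 with the block).

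Leaving out 1 library turned values that had not passed. For flagellin against PBS, without and with the block, FADS2 at 2 h ran from -0.57 to 0.037 and from -0.42 to 0.048, and IDI1 at 24 h from -0.30 to 0.63 and from -0.135 to 0.47. SC5D at 24 h ran from -0.32 to 0.16, and with the block it was positive without replicate 1, 3 or 4 of flagellin, at 0.039, 0.085 and 0.039. For SB203580 plus flagellin against flagellin, without the block, the ranges were -0.0073 to 0.64 for FADS2 at 2 h, and -0.0021 to 0.28 for FDPS, -0.86 to 0.11 for IDI1 and -0.94 to 0.082 for STARD4 at 24 h. INSIG1 in SB203580 plus flagellin against PBS at 24 h ran from -0.88 to 0.040. For the SB203580 interaction the ranges were -0.078 to 0.15 for DHCR7, -0.064 to 0.22 for FDPS and -0.90 to 0.062 for IDI1; with the block DHCR7 reached -0.10 and -0.091 and FDPS -0.0048.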
